A study of Rattus norvegicus with 6 samples.

Results

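The genes described here encode enzymes that break down amino acids, with several enzymes that make glutamine, arginine or creatine from them. They were taken as a list of 36 genes, chosen with earlier results of these data known. The list was set in 8 groups by the amino acid the enzymes act on. Probes of the array were matched to them by accession. A probe was found for 35 of the 36, out of 30229 genes tested in all. Of those 30229, 12072 carry a gene symbol and the rest are accessions or probes without one, and shares of all genes below cover both. No probe was matched to Gldc, the decarboxylase of glycine cleavage, and it was not analysed here.

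The samples were renal cortex of male Sprague-Dawley (Crl:CD(SD)) rats bought at 5 weeks of age and kept on a basal diet. For 4 weeks, rats received corn oil, the vehicle, or monuron, a phenylurea herbicide, at 200 mg/kg/day. Each group has 3 arrays, described as biological replicates. They are of a 1-colour Agilent design, on which Cy3-labelled RNA binds oligonucleotide probes. The 3 corn oil arrays shared a slide and scan day, and the 3 monuron arrays shared another, so in every value below the effect of monuron cannot be told apart from that of slide or scan day.

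The kidney cortex is rich in proximal tubule, whose cells take amino acids back from the filtrate and burn, convert or release them. Glutamine breakdown there yields ammonia for acid excretion, citrulline is turned into arginine, and arginine and glycine are joined in the first step of creatine synthesis. Most of the carbon skeletons are degraded in mitochondria, by dehydrogenases, carboxylases and aminotransferases that feed the citric acid cycle. The comparison asks which of these transcripts differ after repeated dosing with the herbicide.

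On the 6 arrays, between 60.9% and 70.4% of the probes were well above background, and 0 spots were saturated. Levels are given as the relative signal, which is a probe's processed signal divided by the 75th percentile of all probes on the same array. All 35 measured genes were well above background on all 6 arrays, so the filter on dim probes removed none of them. Of the proximal tubule segment S1 and S2 markers, 10 of 10 were well above background on every array, as were 6 of 6 podocyte markers. Of 22 hepatocyte markers, Tat and Cps1 were not well above background on any array. The mean log2 level of the 20 others was -1.28, -1.16 and 0.06 on corn oil replicates 1 to 3 and 0.67, -0.37 and -0.62 on monuron replicates 1 to 3.

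Of the 35 genes 1 was called, Kynu, the kynureninase of tryptophan breakdown, which fell 1.36-fold with monuron (95% interval 1.22 to 1.51, limma adjusted p = 0.0403). No gene of the list was called higher. Among all tested genes 0.414% were called lower and 0.949% higher, beside 2.86% and 0 of the list. Relative to corn oil, 25 of the 35 had a log2 fold change below 0 (71.4%, against 44.7% of all genes) and 10 had one above 0 (28.6%, against 55.3%). The median was -0.05 for the list and 0.02 for all genes, and with no scaling between arrays these were 0.04 and 0.11. The count of the list below 0 depends on the scaling. Without scaling 13 genes lay below 0 and 22 above, and with scaling on spike-in controls 34 and 1. In 12 of the 35 the monuron arrays all lay below the corn oil arrays (34.3%, against 10.3% of all genes), in 3 they all lay above (8.57%, against 15.4%), and in the other 20 the groups overlapped. Both directions together make 42.9% of the list and 25.7% of all genes. Before adjustment, p was under 0.05 for 7 genes with a value below 0 (20%, against 6.73% of all genes) and for 3 above 0 (8.57%, against 10.9%).

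The differences were small. The size of the log2 fold change was under 0.1 in 18 of the 35 genes and over 0.5 in 1, Arg2 (9.02% of all genes were over 0.5). The 95% interval of the fold change lay wholly within 0.5 of 0, on the log2 scale, in 25 of the 35. The median standard error was 0.080 for these genes and 0.11 for all genes. The median over the 35 genes of an array's log2 deviation from its group mean lay between -0.02 and 0.04 on each of the 6 arrays. In that median, deviations up and down cancel. The mean size of the deviation, without its sign, lay between 0.073 and 0.097.

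**Figure D1:**
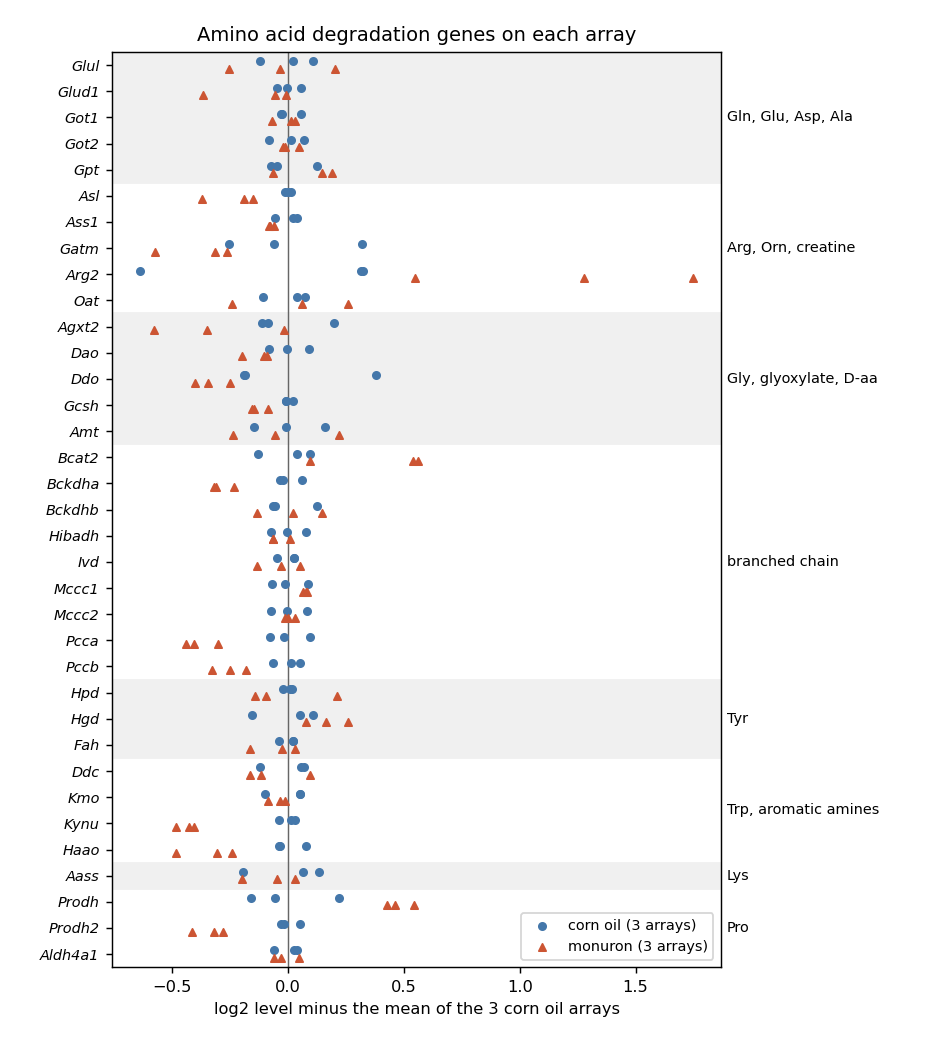
Log2 level of the 35 measured amino acid degradation genes on each of the 6 arrays, after subtraction of the gene's mean over the 3 corn oil arrays (x axis), with genes in rows by amino acid. In 12 genes, Kynu, Haao, Pcca, Pccb, Bckdha, Prodh2, Asl, Ass1, Gatm, Dao, Ddo and Gcsh, the 3 monuron arrays (triangles) all lie left of the 3 corn oil arrays (circles), in Prodh, Bcat2 and Arg2 all right of them, and in 20 genes the groups overlap.

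**Figure D2:**
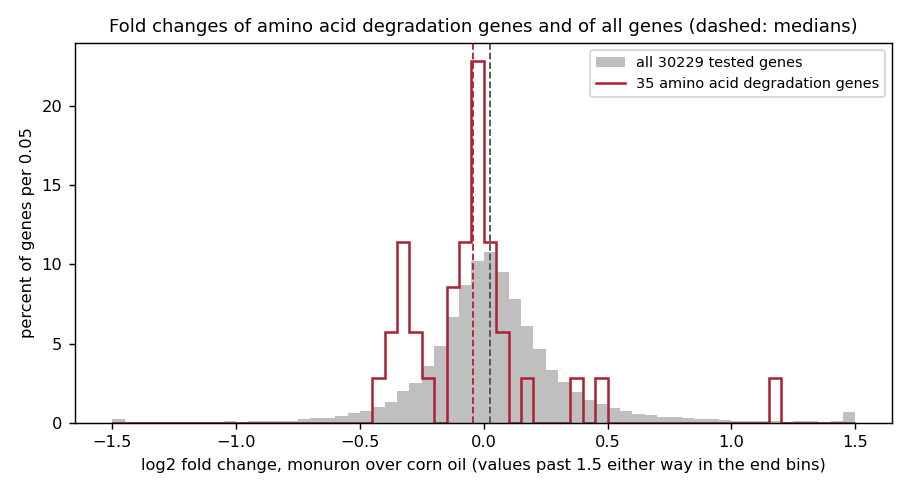
Percent of genes (y axis) by log2 fold change of monuron over corn oil (x axis) in bins of 0.05, for all 30229 tested genes (grey) and the 35 amino acid degradation genes (red outline). The dashed lines mark the medians, 0.02 and -0.05.

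Tryptophan is broken down along the kynurenine path, in which Kmo hydroxylates kynurenine, Kynu splits off its side chain and Haao opens the ring of the product on the way to NAD. The relative signal of Kynu was 17.4, 18.0 and 18.2 on corn oil replicates 1 to 3 and 13.4, 12.8 and 13.2 on monuron replicates 1 to 3. All 3 monuron arrays lay below all corn oil arrays, by more than the spread within either group. The log2 fold change was -0.44 ± 0.061 (SE). A dimmer probe of Kynu gave -0.33 ± 0.065 and was not called when every probe was tested on its own (adjusted p = 0.0892). Leaving out any 1 of the 6 arrays kept the log2 fold change between -0.46 and -0.42, while the adjusted p then lay between 0.103 and 0.145 and the call was lost. Over 20 alternative settings Kynu was called in 8, with adjusted p from 0.0031 to 0.234. The low end came with scaling on spike-in controls, which called 32 of the 35 genes.

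Haao stood at 15.6, 16.9 and 15.7 on the corn oil arrays and at 11.5, 12.99 and 13.6 on the monuron arrays. Its groups did not overlap either, and the log2 fold change was -0.35 ± 0.088 without a call (adjusted p = 0.136). Kmo, the step before Kynu, stood at 5.97 ± 0.36 (SD, n = 3) with corn oil and 5.78 ± 0.15 with monuron, with overlapping groups. Its log2 fold change was -0.05, with a 95% interval from -0.22 to 0.13. Ddc, the decarboxylase that makes dopamine in the proximal tubule, had a log2 fold change of -0.06 ± 0.10, and its groups overlapped.

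Proline and hydroxyproline are each opened by an oxidase of their own, Prodh for proline and Prodh2 for hydroxyproline, and Aldh4a1 carries both products on to glutamate or its hydroxylated form. Prodh stood at 21.9, 28.4 and 23.5 with corn oil and at 33.6, 35.6 and 32.9 with monuron. Prodh2 stood at 52.9, 50.03 and 50.5 with corn oil and at 41.0, 38.4 and 42.0 with monuron. The monuron arrays thus lay above the corn oil arrays in Prodh and below them in Prodh2, and neither gene was called over all genes. The log2 fold change was 0.48 ± 0.11 for Prodh (adjusted p = 0.119) and -0.34 ± 0.067 for Prodh2 (adjusted p = 0.0896). These values differ by 0.82, a difference that was picked after the values were seen and was not tested. Scaling on spike-in controls, which shifts all genes of an array alike, put Prodh at -0.03 and Prodh2 at -0.85. The sign of Prodh thus depends on whether this scaling is used. It was the 1 of 20 alternatives that reversed Prodh, and it put the median of all genes at -0.48.

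All 4 probes of Prodh gave values above 0, from 0.41 to 0.75 on the log2 scale. Aldh4a1 had a log2 fold change of -0.02 on its brightest probe (95% interval -0.18 to 0.15), and relative signals of 87.8, 94.2 and 93.3 with corn oil and 94.6, 87.8 and 89.7 with monuron. Its dimmer probes gave -0.36 ± 0.082 and -0.30 ± 0.073, outside that interval. The probes of Aldh4a1 thus disagree on whether its transcript was lower, and the mean of the 3 probes was not called (log2 fold change -0.23, adjusted p = 0.184).

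**Figure D3:**
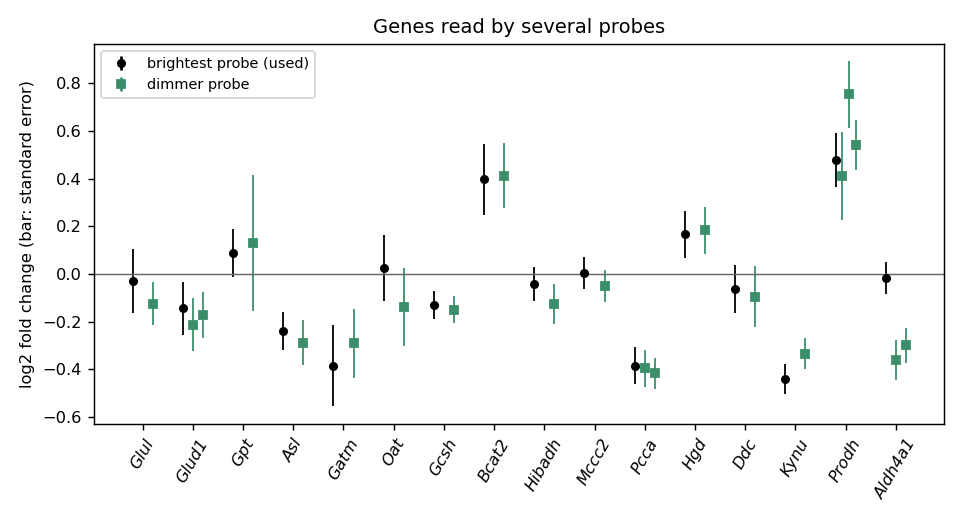
Log2 fold change of monuron over corn oil (y axis, bars are standard errors) for each probe of the 16 genes read by several probes, with the brightest probe in black. The probes of Pcca lie between -0.42 and -0.38 and those of Prodh between 0.41 and 0.75, while those of Aldh4a1 run from -0.36 to -0.02.

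Leucine, isoleucine and valine lose their amino group to Bcat2 and are then decarboxylated by a complex whose E1 part is built from the products of Bckdha and Bckdhb. Bcat2 stood at 4.84, 4.65 and 4.14 with corn oil and at 6.69, 4.84 and 6.59 with monuron. Monuron replicate 2 nearly touched the corn oil range, and the log2 fold change was 0.40 ± 0.15 (adjusted p = 0.254). Bckdha stood at 13.7, 12.9 and 12.8 with corn oil and at 10.5, 10.6 and 11.2 with monuron. Its groups were apart, with a log2 fold change of -0.29 ± 0.065 (adjusted p = 0.111). Bckdhb had a log2 fold change of 0.01, with an interval from -0.24 to 0.26 and overlapping groups.

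Further down these paths Ivd and the carboxylase subunits Mccc1 and Mccc2 act on leucine, and Hibadh acts on valine. Their log2 fold changes ran from -0.04 to 0.08, and the groups overlapped in all 4. Propionyl-CoA, the product of isoleucine and valine, is carboxylated by an enzyme of 2 subunits, Pcca and Pccb. Pcca stood at 15.7, 16.9 and 15.0 with corn oil and at 12.9, 11.9 and 11.7 with monuron. Pccb stood at 25.4, 24.7 and 23.4 with corn oil and at 20.6, 19.5 and 21.6 with monuron. Both subunits lay lower on every monuron array than on any corn oil array, and neither was called. The log2 fold change was -0.38 ± 0.078 for Pcca (adjusted p = 0.0936) and -0.26 ± 0.072 for Pccb (adjusted p = 0.164). Over the 9 genes of this group the median was -0.04, with 1 gene whose monuron arrays all lay above and 3 whose monuron arrays all lay below (15.4% and 10.3% of all genes).

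**Figure D4:**
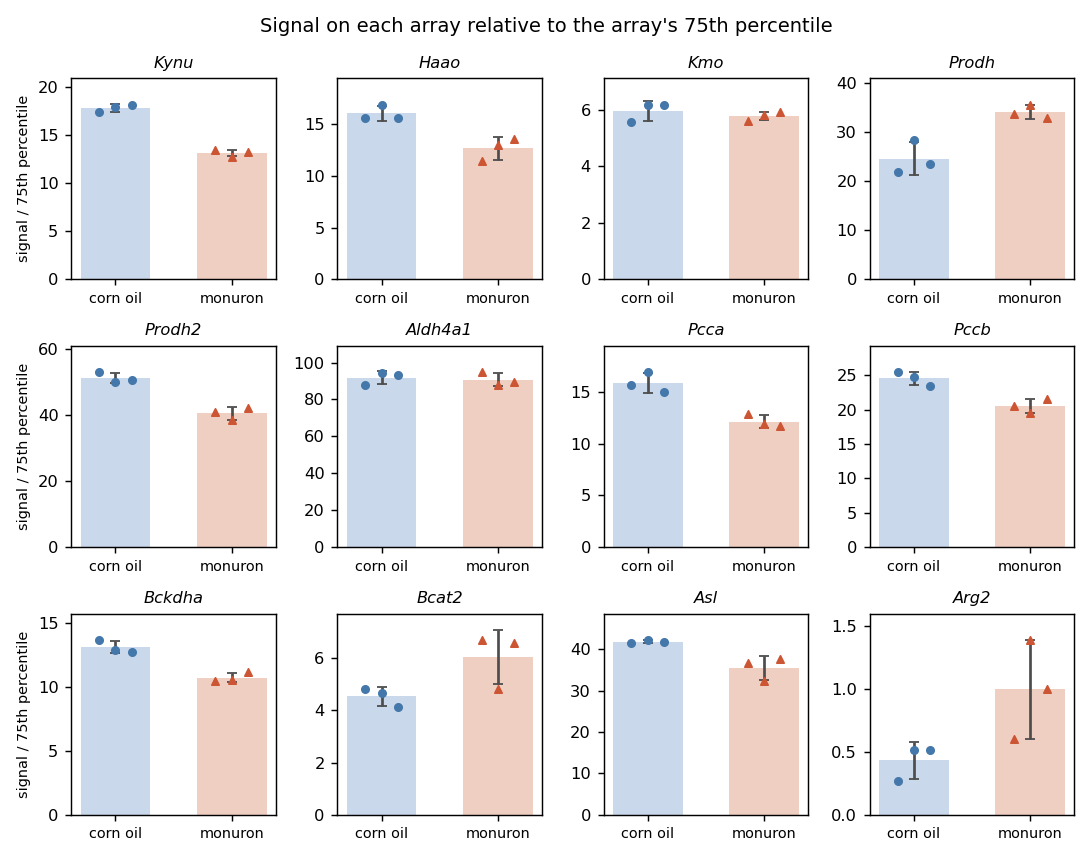
Relative signal (y axis, signal over the 75th percentile of the array) of 12 genes on each array, with bars for the mean and lines for the SD of 3 arrays per group. Kynu lies at 17.4 to 18.2 with corn oil and 12.8 to 13.4 with monuron, while Kmo and Aldh4a1 overlap between the groups.

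Upstream sequence is shown for the genes of the list with the smallest p-values that have an entry in the RefSeq promoter table (build GRCr8), since these were the genes that lay lower most clearly. Each line gives the 250 bases before the table's transcription start. Capitals mark matches to GTTAAT, the unit repeated in the binding word of the tubule transcription factor HNF1, read on both strands.
Kynu (chr3:48188036-48188285, plus strand): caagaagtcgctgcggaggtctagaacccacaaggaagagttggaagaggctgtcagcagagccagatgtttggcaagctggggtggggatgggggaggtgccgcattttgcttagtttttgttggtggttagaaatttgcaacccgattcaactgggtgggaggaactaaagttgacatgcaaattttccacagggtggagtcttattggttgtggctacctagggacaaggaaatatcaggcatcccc
Prodh2 (chr1:94880837-94881086, plus strand): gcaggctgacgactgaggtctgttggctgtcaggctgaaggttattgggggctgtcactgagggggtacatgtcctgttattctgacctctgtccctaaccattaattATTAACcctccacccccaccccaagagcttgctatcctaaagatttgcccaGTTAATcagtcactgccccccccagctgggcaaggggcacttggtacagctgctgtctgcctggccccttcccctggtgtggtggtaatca
Pcca (chr15:106034368-106034617, plus strand): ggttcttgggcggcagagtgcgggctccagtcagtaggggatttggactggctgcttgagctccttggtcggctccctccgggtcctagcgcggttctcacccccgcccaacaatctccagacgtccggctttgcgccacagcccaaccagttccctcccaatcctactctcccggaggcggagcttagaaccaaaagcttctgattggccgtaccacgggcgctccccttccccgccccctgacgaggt

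Of the 3 sequences only that of Prodh2 held a match to a searched word. GTTAAT or its reverse complement was found in it at 142 to 137 and at 91 to 86 bases before the start, and 6.45% of 33469 promoters of the same length held such a match. Among the 31 genes of the list with an entry, Prodh2 and Hpd held it. The whole HNF1 word, GTTAAT and its reverse complement with any base between, was found in none of the 31 and in 0.00299% of all promoters, and CAAAGTCCA, the HNF4 word, in Agxt2 and Kmo (0.338% of all promoters). TATAAA was found in 5 of the 31 (12.9% of all promoters). Allowing 1 of the letters of the HNF1 word to differ, a search added after the first, found a match in Prodh2 alone of the 31, at 149 to 137 bases before the start, and in 0.131% of all promoters. It overlaps the match at 142 to 137. These are matches of letters and not measured sites.

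In the proximal tubule Ass1 and Asl turn citrulline into arginine, Gatm uses arginine for creatine, the mitochondrial arginase Arg2 splits it into ornithine and urea, and Oat passes ornithine on to glutamate or proline. Asl stood at 41.4, 42.2 and 41.8 with corn oil and at 36.6, 32.3 and 37.6 with monuron. The groups were apart, with a log2 fold change of -0.24 ± 0.080 (adjusted p = 0.215), and a second probe of Asl gave -0.29. Ass1 had a log2 fold change of -0.07 (95% interval -0.22 to 0.08), its groups being narrowly apart. Gatm stood at 40.9, 53.0 and 35.6 with corn oil and at 34.3, 28.6 and 35.4 with monuron. Corn oil replicate 3 lay next to monuron replicate 3, and the log2 fold change of -0.39 ± 0.17 was not called (adjusted p = 0.317).

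Arg2 had the largest fold change of the list and the widest interval. Its relative signal was 0.265, 0.516 and 0.513 with corn oil and 0.603, 1.39 and 1.00 with monuron. Every monuron array lay above every corn oil array, but monuron replicate 1 lay close to the corn oil range. The log2 fold change was 1.19 ± 0.40 (95% interval 0.22 to 2.17, adjusted p = 0.215), and it was 0.87 without corn oil replicate 1 and 1.51 without monuron replicate 1. It was not called under any of 20 alternative settings, where adjusted p ran from 0.112 to 0.410. Oat overlapped between the groups, with a log2 fold change of 0.03 ± 0.14. A dimmer probe of Oat gave -0.14 ± 0.16, so its probes differ in sign.

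Of the glycine cleavage system the list holds Gcsh, which carries the intermediate, and Amt, which moves its methylene group to folate, beside the unmeasured Gldc. Gcsh stood at 15.2, 15.5 and 15.2 with corn oil and at 13.8, 13.7 and 14.4 with monuron, a log2 fold change of -0.13 ± 0.059 without a call (adjusted p = 0.330). A second probe of Gcsh gave -0.15. Amt overlapped between the groups (-0.03 ± 0.14). Dao and Ddo oxidise D-amino acids, the second those with an acidic side chain. Ddo stood at 0.205, 0.205 and 0.304 with corn oil and at 0.197, 0.184 and 0.177 with monuron, and Dao had a log2 fold change of -0.13 ± 0.075. In both the monuron arrays lay just below the corn oil arrays. Agxt2, an aminotransferase that uses glyoxylate and also clears methylated arginines, had a log2 fold change of -0.32 ± 0.17 with overlapping groups. All 5 measured genes of this group had a value below 0, with a median of -0.13, and 0 were called.

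Tyrosine is degraded in sequence by Hpd, Hgd and Fah, whose last step yields fumarate and acetoacetate. Hgd stood at 78.4, 94.2 and 90.6 with corn oil and at 92.2, 105 and 97.9 with monuron, and its log2 fold change was 0.17 ± 0.097 (adjusted p = 0.431). Fah stood at 36.1, 34.6 and 36.1 with corn oil and at 31.8, 34.98 and 36.3 with monuron, with a log2 fold change of -0.05 ± 0.075. Hpd had a value of -0.0094, with an interval from -0.28 to 0.26. In all 3 genes of tyrosine breakdown the groups overlapped. Aass, which starts lysine breakdown, stood at 4.75, 4.99 and 3.97 with corn oil and at 4.64, 4.40 and 3.96 with monuron, and the groups overlapped (-0.07 ± 0.11).

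Glutamine, glutamate, aspartate and alanine are handled by Glul, which makes glutamine, by Glud1, which frees ammonia from glutamate, and by the aminotransferases Got1, Got2 and Gpt. In all 5 the groups overlapped on the brightest probe. On that probe Glud1 stood at 83.7, 89.7 and 85.99 with corn oil and at 85.9, 83.2 and 67.0 with monuron. There monuron replicate 3 alone was low. The dimmer probes of Glud1 gave log2 fold changes of -0.21 ± 0.11 and -0.17 ± 0.098, without a call. On the first of these the monuron arrays all lay below the corn oil arrays. Gpt stood at 1.53, 1.75 and 1.55 with corn oil and at 1.78, 1.83 and 1.53 with monuron. The log2 fold changes were -0.14 ± 0.11 for Glud1 and 0.09 ± 0.10 for Gpt. Got1 and Got2 were the most narrowly bounded, with 95% intervals from -0.17 to 0.15 and from -0.16 to 0.17. For Glul the value was -0.03 ± 0.13.

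**Figure D5:**
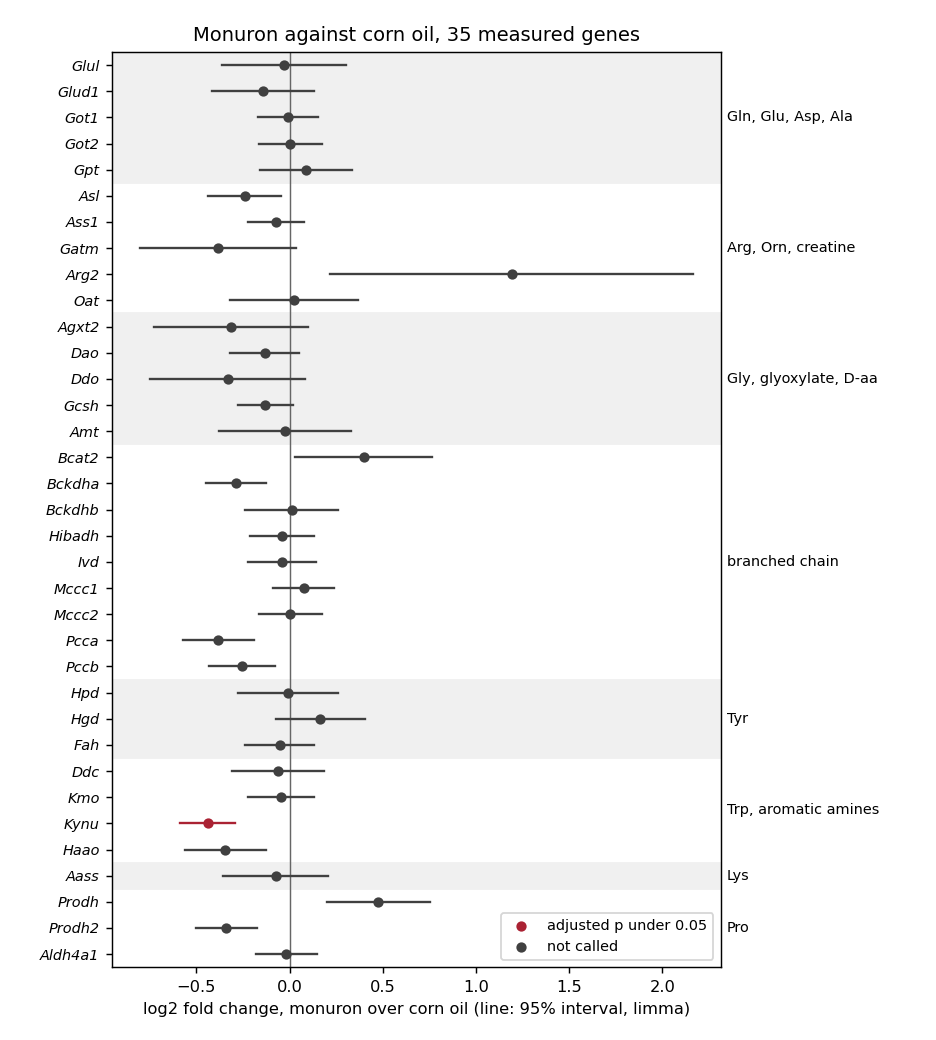
Log2 fold change of monuron over corn oil (x axis, points) with its 95% interval from limma (lines) for the 35 measured genes, in rows by amino acid. Kynu, in red, is the gene called at adjusted p under 0.05, and the interval of Arg2 runs from 0.22 to 2.17.

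A second list held 118 other genes of amino acid metabolism, of which 106 had a probe and 99 were tested. Of these 1 rose (0.949% of all genes were called higher) and 2 fell (0.414% were called lower), and the median log2 fold change was -0.02. Pipox, an oxidase of pipecolate from lysine and of sarcosine, rose from 0.535, 0.386 and 0.571 with corn oil to 2.64, 2.94 and 1.94 with monuron (log2 fold change 2.33 ± 0.21, adjusted p = 0.0144). Pepd, the peptidase that frees proline and hydroxyproline from dipeptides, fell from 49.3, 47.7 and 45.8 to 29.8, 31.3 and 33.3 (-0.60 ± 0.073, adjusted p = 0.0300). Dmgdh, which demethylates dimethylglycine, fell from 3.85, 3.81 and 3.33 to 2.27, 1.74 and 1.90 (-0.90 ± 0.12, adjusted p = 0.0376). In each of these 3 the groups were well apart. With the mean of its probes Pepd was not called (adjusted p = 0.0778), and over 20 alternatives its adjusted p ran from 0.0031 to 0.204. The low end came with scaling on spike-in controls, which called 74 of the 99. Without any 1 of the 6 arrays, 0 or 1 of the 3 genes was called, while over 20 alternatives Pipox was called in 13, Dmgdh in 9 and Pepd in 8.

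In the other groups the gene with the smallest p was not called. The aldehyde dehydrogenase gene Aldh2 stood at -0.39 ± 0.064 (adjusted p = 0.0603). Oplah, which opens oxoproline to glutamate, stood at -0.45 ± 0.10, and Mpst, a sulfur transferase of cysteine breakdown, at -0.35 ± 0.079. Odc1, which makes putrescine from ornithine, stood at 0.76 ± 0.20, and Cndp1, a carnosinase, at 0.68 ± 0.32. Named after its values were seen, the aminotransferase gene Aadat, which acts on kynurenine and on the lysine product aminoadipate, stood at 1.19 ± 0.36 (adjusted p = 0.183). Its relative signal was 7.96, 15.0 and 10.1 with corn oil and 15.4, 32.4 and 28.7 with monuron.

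Markers of cell types and injury moved between the groups beside these genes. Of 10 segment S1 and S2 markers, Gatm among them, 8 lay below 0 on the log2 scale, without any call (median -0.21, with 44.7% of all genes below 0). Values below 0 were also found for 5 of 5 measured leukocyte markers (median -0.26), 6 of 6 endothelial markers (median -0.16) and 5 of 6 podocyte markers (median -0.16), again with 0 calls. The summed relative signal of the S1 and S2 markers was between 1100.3 and 1182 with corn oil and between 939.9 and 1071 with monuron. Its largest parts were Slc34a1 (means 374 with corn oil and 353 with monuron) and Slc22a6 (307 and 290), whose groups overlapped. The 8 segment S3 markers had a median of 0.07 and 0 calls, with values spread from -0.49 (Slc5a1) to 1.04 (Slc7a13). Values above 0 were found for 4 of 6 measured thick limb and distal tubule markers (median 0.05). The same held for 4 of 7 collecting duct markers (median 0.10), and both lists had 0 calls. Slc4a1, the highest of the collecting duct markers at 0.94, is also on the red cell list counted next. Of 7 tubule injury genes 4 were called higher, and 5 of the 6 red cell genes tested out of 9 listed (0.949% of all genes were called higher). Of 20 measured hepatocyte markers 17 had a value above 0 and 0 were called, with a summed signal from 117 to 138 with corn oil and from 112 to 155 with monuron. Most of that sum was Serpinc1, and the 19 others summed to 20.6, 25.3 and 39.7 with corn oil and to 56.1, 31.2 and 29.5 with monuron, with overlapping groups. With the hepatocyte score as a covariate the log2 fold change of Kynu was -0.46, and without the array highest in these markers in each group it was -0.44, with the call lost in both (adjusted p = 0.110 and adjusted p = 0.234). The part of tubule cell loss in the lower values was not tested. In bulk cortex fewer cells of a type and less RNA per cell cannot be told apart.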

How the data were processed

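Spot intensity was deposited as scanner text, which the submitters' processing notes credit to Agilent Feature Extraction 10.7. The authors' table of processed values is a linear ratio: at 0.1 and above, each value is the processed signal over a constant for that array, within 0.0497%. That constant was 1.001 to 1.0029 times the array's 75th percentile as computed here, and the sources used here do not say how it was set. The medians of its columns lay between 0.108 and 0.112.

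For each array, the 75th percentile over 61537 non-control probes was subtracted from log2 processed signal. Outlier spots, up to 32 on an array, were dropped. A probe was kept if 1 group had it well above background on each of its 3 arrays (41125 probes). RefSeq (GRCr8) accessions named 45.8% of probes, and the brightest probe stands for a gene. The 2 groups were fitted in limma 3.58.1 under R 4.3.3 with moderated, two-sided tests, and p-values were adjusted by Benjamini-Hochberg over 30229 genes (threshold 0.05). Throughout, ± gives the standard error of a log2 fold change or, where stated, the SD of levels. The series describes its samples as biological replicates. The functions were tested on simulated data.

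The genes and lists were chosen with earlier results of these data known. Values on every array are given for the called gene and for the 2 with the smallest p in each amino acid group. Pccb, Bcat2, Aldh4a1, Gatm and Aadat were added after their values were seen. Other pathway genes are named where called or where first by p in their group, except some that are not reported here, and sequences are for the 4 genes with the smallest p, of which Bckdha had no entry. Same-numbered arrays were not paired: their deviations correlated at -0.08, 0.11 and -0.17. The closing section gives the alternatives: other scaling, background correction, filters, probe rules, weights, covariates and arrays left out.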

Additional observations from a re-analysis of the deposited data

How the results depend on the processing

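Of 35 genes 14 kept their sign under all 20 alternatives, Kynu, Haao, Pcca, Pccb, Bckdha, Prodh2 and Arg2 among them. Scaling on spike-in controls lowered all log2 fold changes alike. It reversed 9 genes above 0 and could reverse none below 0, so the count favours genes below 0. In the comparison of monuron against corn oil, all genes, 412 were called, 1 of them of the list, and 3 other pathway genes. Leaving out each array in turn gave 30 to 137 calls in all, 0 of the list and 0 to 1 of the other pathway genes, with a list median from -0.068 to -0.030. The replicate block gave 0 calls in all, of the list and of the other genes (limma, 4557 genes at an unadjusted p under 0.05). Leaving out the array highest in hepatocyte markers in each group gave 0, 0 and 0 as well (4136 at an unadjusted p under 0.05). With the hepatocyte covariate the calls were 111, 0 and 0, and with no detection filter 86, 0 and 1. Normexp correction of the median spot signal followed by quantile normalization, which changes several choices together, gave 773, 3 and 9, and eBayes with trend and robust gave 707, 4 and 9. No scaling left 0 of the list and 1 other gene, the mean of a gene's probes left 0 of the list, and detection on all 6 arrays gave 5 other genes. Scaling on 7 spike-in probes shifted the median of all genes to -0.48 and called 21108 genes, 32 of the list and 74 others. The list median was 0.041 without scaling, -0.55 on spike-ins, -0.10 with normexp and quantile normalization and -0.074 with the mean of probes.

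Changed signs were found for genes near 0 and, on spike-ins, for others. Without scaling they were Glul 0.056, Got1 0.078, Ass1 0.012, Amt 0.061, Hibadh 0.045, Ivd 0.047, Hpd 0.077, Fah 0.032, Ddc 0.023, Kmo 0.041, Aass 0.013 and Aldh4a1 0.069. On spike-ins they were Got2 -0.51, Gpt -0.42, Oat -0.48, Bcat2 -0.11, Bckdhb -0.50, Mccc1 -0.43, Mccc2 -0.50, Hgd -0.34 and Prodh -0.032 The hepatocyte covariate gave Glul 0.037, Got2 -0.043, Bckdhb -0.10 and Hpd 0.037. Leaving out the arrays highest in these markers gave Glul 0.092, Mccc2 -0.031, Hpd 0.038, Fah 0.012 and Kmo 0.0017. Quantile normalization gave Got2 -0.0035, Bckdhb -0.0050 and Mccc2 -0.014, median centring Got2 -0.0011 and Mccc2 -0.00056, and array weights Mccc2 -0.0019. Normexp with quantile normalization gave Ass1 0.045 and Amt 0.085, and the mean of probes Oat -0.057 and Mccc2 -0.022. Leaving out 1 array gave Aldh4a1 -0.048 to 0.0059, Amt -0.15 to 0.082, Bckdhb -0.057 to 0.083, Fah -0.095 to 0.0016, Glul -0.15 to 0.083, Got1 -0.028 to 0.022, Got2 -0.037 to 0.037, Hpd -0.12 to 0.058, Ivd -0.083 to 0.0089, Mccc2 -0.033 to 0.045 and Oat -0.091 to 0.16. The causes were not tested. The number of arrays limits the precision.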
